A study of Mus musculus with 104 samples.

Results

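The genes described here mark the linings of the brain ventricles: 23 genes of the choroid plexus and 8 genes of the ependyma, 31 in all. They were taken by symbol from a list and not from their behaviour in these libraries, although results of these data were known when the list was drawn up. All 31 were found in the 3 BAC-CAG tables, which hold 48795 genes each. In the BACHD table of 22981 genes 29 were found, and Mia and Dnah12 had no match there. Among the choroid plexus genes, 14 were used as a core whose summed level marks a library with choroid plexus RNA (Clic6, Prlr, Kl, Folr1, Otx2, Sostdc1, Slc4a5, Steap1, Cldn2, Calml4, Tmem72, F5, Slc13a4 and 1500015O10Rik). Ttr was kept apart from the core, and Aqp1, Enpp2, Igf2, Igfbp2, Col8a1, Rarres2, Mia and Car12 were kept apart because other brain cells are known to express them. The ependymal genes were Foxj1, Ccdc153, Tmem212, Rsph1, Dynlrb2, Ak7, Hydin and Dnah12.

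RNA was sequenced from striatum and cortex of 2 transgenic mouse lines of Huntington's disease and of their wild-type (WT) littermates, all on the FvB background. BAC-CAG mice and WT littermates were sampled at 2 months (6 against 6 animals per tissue), 6 months (8 against 8) and 12 months (8 against 8), and BACHD mice and their own WT littermates at 12 months (4 against 4). Both lines carry a human mutant huntingtin gene on a bacterial artificial chromosome under the regulatory sequence of the human gene. The labels name no drug. All mice were perfused with phosphate-buffered saline before dissection, males and females were equal in number in every group, and the libraries of a group came from separate animals (53 in all, 51 of them with both tissues). The p-values of the genotype comparisons measure the spread between animals. In the tissue contrasts both tissues of an animal entered as separate libraries, so those p-values leave the pairing out.

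The choroid plexus is a folded epithelium that hangs into each ventricle and secretes cerebrospinal fluid. It makes transthyretin (Ttr), which carries thyroid hormone into the fluid, in very large amounts. The ependyma is the ciliated cell layer that lines the ventricle walls, and its beating cilia move the fluid; Foxj1 is the transcription factor that switches on the genes of motile cilia. The striatum forms the outer wall of the lateral ventricle, so a dissected piece can hold ventricular lining, and the choroid plexus lies loose beside it. In bulk RNA, more cells of a type and more RNA per cell cannot be told apart.

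Levels are given in CPM, the count of a gene per M (mega) counts of its library. The libraries held 25.8 to 48.4 M counts, with a mean of 36.5 M. The labelled tissues were checked on 2 lists of 10 neuronal genes, scored as the mean of log2(CPM + 1). The score of striatal projection neurons was 7.92 to 9.28 in the 52 striatal libraries and 3.24 to 4.94 in the 52 cortical ones. The score of cortical excitatory neurons was 6.54 to 7.02 in cortex and 1.78 to 5.62 in striatum, highest in replicates 7 and 2 of the BAC-CAG mice at 12 months (5.62 and 4.96).

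Ttr separated single libraries from the rest of their group. In striatum it had a median of 44.8 CPM over 52 libraries, with a lowest value of 7.14 CPM and a highest of 1506 CPM. At 2 months the BAC-CAG striata held 7.14, 12.3, 1361, 30.2, 35.04 and 29.6 CPM of Ttr, and the WT striata 12.4 to 63.5 CPM with a median of 33.1 CPM. A single BAC-CAG library, replicate 3, lay far above all others of that age, and the remaining libraries of both genotypes overlapped. At 6 months BAC-CAG striata ran from 16.9 to 1018 CPM (median 65.2 CPM) and WT striata from 20.7 to 355 CPM (median 71.9 CPM). At 12 months BAC-CAG striata ran from 9.62 to 1494 CPM (median 32.0 CPM) and WT striata from 16.8 to 1506 CPM (median 45.1 CPM). At 12 months each genotype had 1 library of that size, and the next highest values were 70.5 CPM in BAC-CAG and 67.7 CPM in WT mice.

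**Figure D1:**
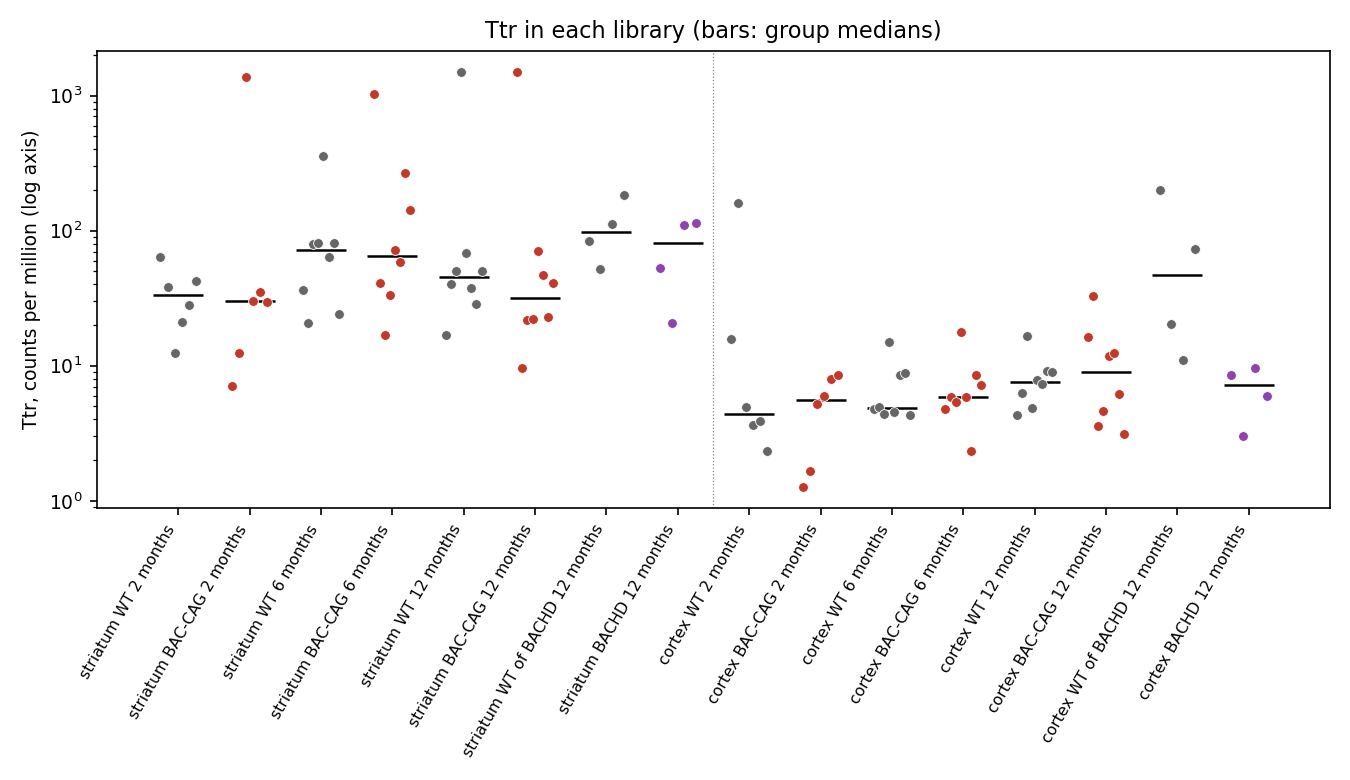
Ttr in CPM (log axis) in each library, by tissue, age and genotype; points are libraries, bars are group medians, grey is WT, red BAC-CAG and purple BACHD. In striatum 4 points lie far above the rest (1018, 1361, 1494 and 1506 CPM), while group medians lie between 29.9 and 97.6 CPM.

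A library was said to carry choroid plexus when its summed core level, with Ttr left out, was at least 3 times the median of its tissue and table. By this rule 4 of 52 striatal libraries and 0 of 52 cortical libraries carried it. They were replicate 3 of the BAC-CAG mice at 2 months (289 CPM, 8.0 times the median), replicate 1 of the BAC-CAG mice at 6 months (216 CPM, 5.56 times), replicate 1 of the BAC-CAG mice at 12 months (333 CPM, 7.68 times) and replicate 4 of the WT mice at 12 months (310 CPM, 7.16 times). The same 4 libraries had the 4 highest Ttr values. Just outside the rule lay replicate 5 of the WT mice at 6 months, at 2.40 times the median with 355 CPM of Ttr, and then replicate 7 of the BAC-CAG mice at 6 months, at 1.99 times with 268 CPM of Ttr. The other 48 striatal libraries ran from 0.649 to 2.40 times the median. No library of the BACHD cohort reached the rule, and Ttr there was between 20.5 and 182 CPM in striatum. In the cortex of the same animals Ttr was 5.24, 4.78 and 4.89 CPM for the carriers at 2 months, at 6 months and the WT mouse at 12 months, and 16.4 CPM for the BAC-CAG carrier at 12 months. Over the core without Slc13a4 and Clic6 (12 genes) the first 3 of these cortices had 0.946, 1.16 and 0.649 times the cortical median. The cortex of the BAC-CAG carrier at 12 months had 2.95 times it, with 8 of the 14 core genes at 2 times the median of the other libraries or more. There 3 core genes exceeded all of those libraries, while Ttr, at 2.43 times their median, did not. Of 10 genes of striatal projection neurons 6 also reached 2 times the median (median ratio 2.06), as did 4 of 8 ependymal genes. The part of these other cell types was not tested.

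In each of the 4 carriers 21 of the 23 choroid plexus genes stood above all other striatal libraries of its table. The 14 core genes among them made up the sum that picked the carriers, so their high levels follow from the rule. Outside that sum, Ttr and 6 of the 8 genes known from other brain cells stood above in each carrier. At 12 months the other carrier was left out of that comparison, and at 6 months replicates 5 (WT) and 7 (BAC-CAG). The exceptions were Rarres2 (chemerin, a chemoattractant) in all 4, Mia (a small secreted protein) in 3 and Car12 (a carbonic anhydrase) in 1. For these counts and the like ones below, the share of all genes that stood highest in the same library is not given. Ttr was 17.4 to 46.0 times the median of the other libraries. Among transporters and channels of the epithelium, Slc4a5 (a sodium bicarbonate cotransporter) was 21.1 to 38.6 times, Folr1 (the folate receptor that loads folate into the fluid) 13.5 to 23.7 times and Aqp1 (the water channel of its apical membrane) 13.9 to 28.0 times the median. Cldn2, a tight junction protein that lets cations pass, was 19.97 to 41.9 times the median. Among receptors and hormones, Kl (klotho, a coreceptor of a fibroblast growth factor) was 11.4 to 17.6 times and Prlr (the prolactin receptor) 5.56 to 14.8 times. Otx2, the homeobox factor that keeps choroid plexus identity, was 5.18 to 16.2 times, and Sostdc1, a secreted inhibitor of bone morphogenetic protein and Wnt signals, 10.9 to 22.3 times. Tmem72 was 18.3 to 31.8 times and 1500015O10Rik (the peptide augurin) 7.12 to 21.8 times the median. The smallest ratios of the core were those of Clic6, an intracellular chloride channel (1.72 to 2.36 times), whose median was already 20.9 CPM over all striatal libraries.

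**Figure D2:**
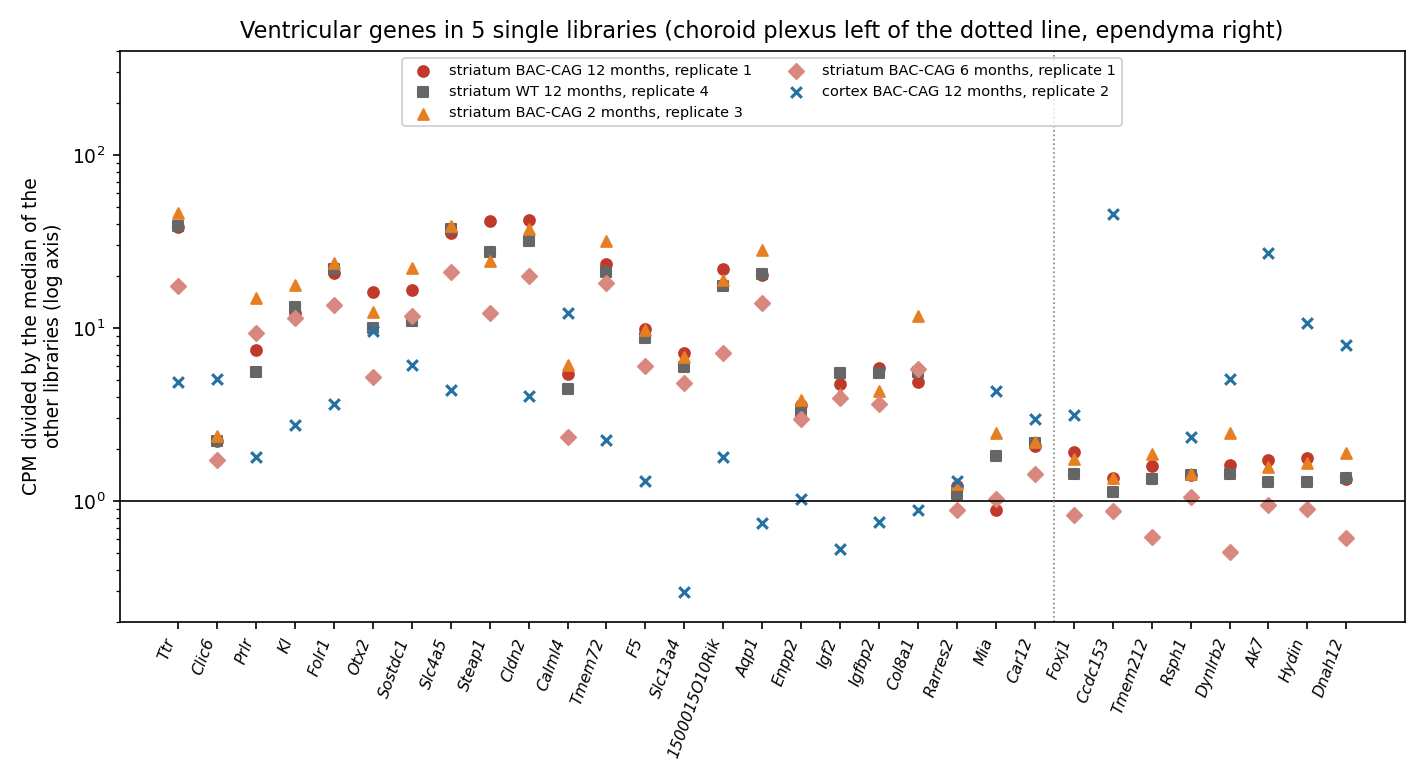
Level of each of the 31 genes in 5 single libraries, as CPM divided by the median of the other libraries of the tissue and table (log axis, the line at 1 is no difference). In the 4 striatal carriers Ttr is at 17.4 to 46.0 and Cldn2 at 19.97 to 41.9, while Foxj1 is at 0.825 to 1.92; in cortex replicate 2 of the BAC-CAG mice at 12 months (crosses) the ependymal genes lie higher, with Ccdc153 at 45.3 and Ttr at 4.84. Genes at 0 or with a median of 0 are not drawn.

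The excess over the median of the other libraries was set against that of Ttr in the same carrier. For the 19 other genes above all other libraries in every carrier, the highest of these 4 percentages was 1.10 to 2.54 times the lowest, with a median of 1.39, and it was over 1.5 times for 6 genes. As a percentage of the excess CPM of Ttr, that of Kl was 5.32 to 5.85% in the 4 libraries, that of Folr1 0.779 to 0.905%, that of Slc4a5 0.990 to 1.2% and that of Igfbp2 2.07 to 2.35%. Enpp2 (autotaxin, which makes lysophosphatidic acid) ran from 45.9 to 60.1%. The widest spreads were those of Calml4 (0.120 to 0.306%), Otx2 (0.283 to 0.583%) and Sostdc1 (0.281 to 0.507%). Lengths were those of all annotated exons of a gene, overlaps counted once, and can exceed that of the expressed transcript. Per kilobase of this length the median excess was 1175 CPM per kb for Ttr and 115 CPM per kb for Enpp2. Then came Igf2 (insulin-like growth factor 2, 17.6 CPM per kb), Igfbp2 (a binding protein of these factors, 16.7 CPM per kb) and Kl (8.01 CPM per kb). Genes known from other brain cells took the first 3 places after Ttr by size of the excess per kilobase, although their ratios to the median were small: Enpp2 was 2.98 to 3.85 times, Igf2 3.93 to 5.51 times and Igfbp2 3.62 to 5.84 times the median.

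A second list of 19 choroid plexus genes that are no members was set beside them; among it are Kcnj13 and Kcne2, a pair of potassium channel genes of the epithelium. Of the 19, 14 to 16 lay above every other library of the table in the 4 carriers, with median ratios between 2.27 and 2.71. The ependymal genes were far less raised in them. Their median ratio was 1.59, 1.34 and 1.69 in the carriers of BAC-CAG mice at 12 months, of WT mice at 12 months and of BAC-CAG mice at 2 months, and 0.849 in the carrier at 6 months. Of 14 leptomeningeal genes, 2 or 3 lay above all other libraries, with median ratios of 1.08 to 1.29. Of 11 genes of thalamus, habenula and septum, 5 did so in the BAC-CAG carrier at 12 months (median ratio 1.81) and at most 1 in the other carriers. The 10 oligodendrocyte genes had median ratios between 0.835 and 1.24, and none of them exceeded all other libraries in a carrier. The 10 genes of cortical excitatory neurons had a median ratio of 3.46 in the WT carrier at 12 months, with 7 of them at 2 times the median or more, and of 2.14 in the carrier at 6 months, with 6 of them. In the BAC-CAG carriers at 2 and 12 months the ratios were 0.801 and 0.982. At most 1 of these neuronal genes exceeded all other libraries in a carrier, and their part in the values above was not tested.

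Between the carriers and the remaining libraries lay intermediate ones. They were listed where the core without Slc13a4 and Clic6 (12 genes) summed to at least 2.5 times the median. High levels of these core genes therefore follow from the listing. In replicate 5 of the WT mice at 6 months 18 of 23 choroid plexus genes exceeded all other striatal libraries of that table (median ratio 2.91). In replicate 7 of the BAC-CAG mice 16 did so (median ratio 1.91), each count leaving out the carrier and the other library. Core genes made up 12 of the 18 and 11 of the 16. Of the genes of thalamus, habenula and septum, 5 of 11 exceeded the same libraries in replicate 5 (median ratio 2.14). In cortex the core sum moved with Slc13a4, a sulfate transporter with a median of 13.1 CPM over cortical libraries, against 1.95 CPM in striatum. With Slc13a4 and Clic6 left out, a choice made after the values had been seen, 2 cortical libraries passed 3 times the median. Replicate 2 of the WT mice at 2 months had 6.19 times the median and 159 CPM of Ttr, against 15.8 CPM in the next library of its group. Replicate 1 of the WT littermates of BACHD mice had 3.87 times the median and 200 CPM of Ttr, against 72.6 CPM in the next. In the first, Tmem72 was 31.8 times and Slc4a5 19.4 times the cortical median, both genes being part of the sum. There 16 of 23 genes exceeded all other libraries, 12 of them of the core. In the second 18 of 22 did so, 13 of them of the core. All 10 genes of striatal projection neurons stood above every other cortical library of its table there as well (median ratio 2.28).

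**Figure D3:**
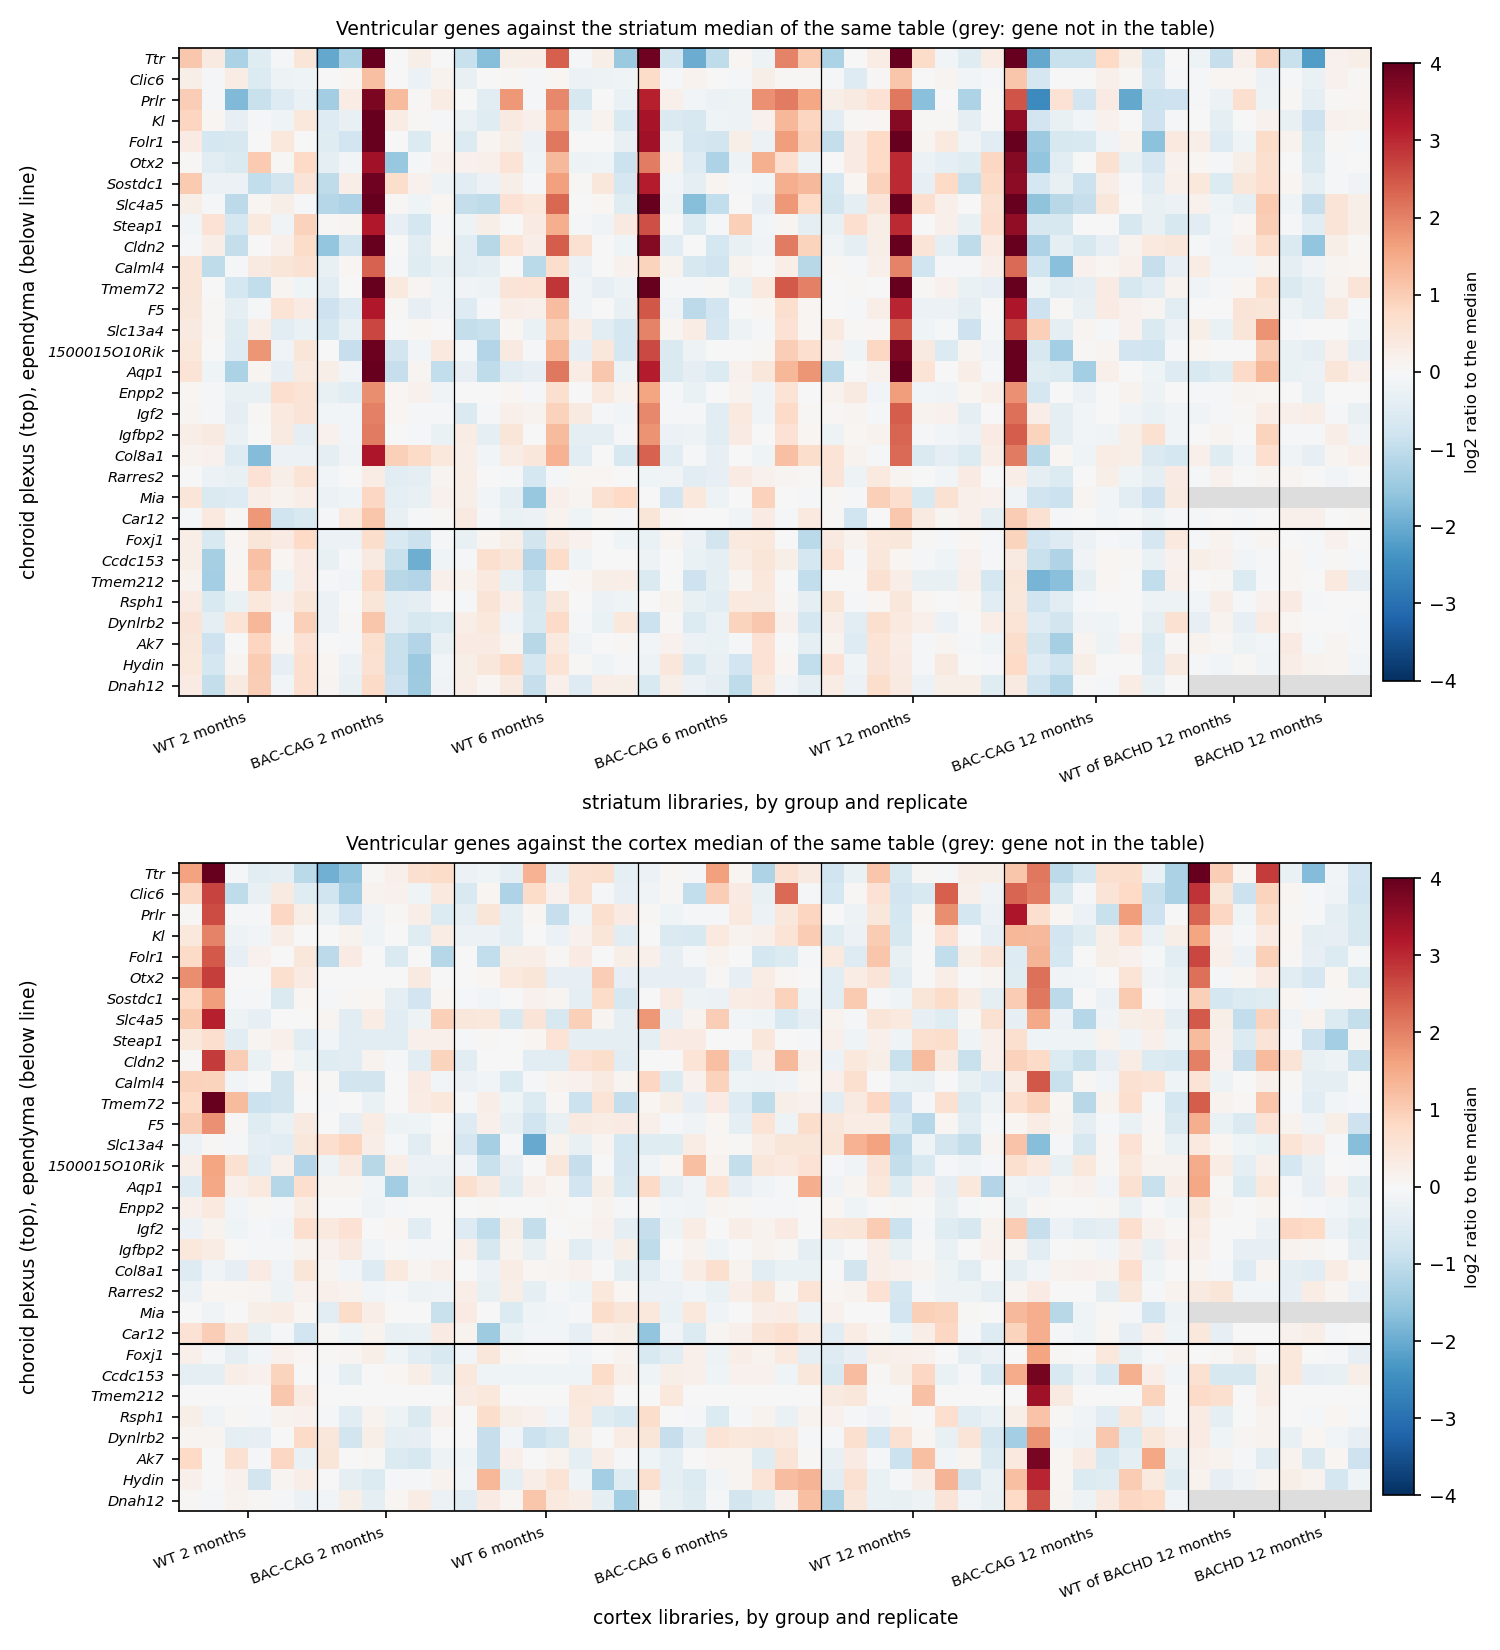
The 31 genes (rows) in 52 striatal (top) and 52 cortical libraries (bottom), as log2 of the ratio to the median of the tissue and table with 0.1 CPM added; red is above, blue below, and colour stops at 4 in either direction. Red columns in the choroid plexus rows mark the 4 striatal carriers, and in cortex replicate 2 of the WT mice at 2 months and replicate 1 of the WT littermates of BACHD mice, while the ependymal rows stand out in cortex replicate 2 of the BAC-CAG mice at 12 months.

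Most ventricular genes were higher in striatum than in cortex. In edgeR's quasi-likelihood test with genotype and sex as covariates, 18 of 26 tested members were higher and 4 lower in striatum at 2 months, where 37.7% of all genes were called higher and 35.7% lower. At 6 months 22 of 27 were higher and 4 lower (all genes 37.4% and 36%), at 12 months 22 of 26 higher and 3 lower (36.9% and 36.5%), and in the BACHD cohort 16 of 28 higher and 4 lower (39.5% and 36.1%). All 8 ependymal genes were higher in striatum at 2, 6 and 12 months, and all 7 present in the BACHD table. Their median log2 difference was 3.30, 3.25, 2.65 and 2.63. Members near 0 in cortex, such as Tmem212 (cortical median 0 CPM) and Ccdc153 (0.03 CPM), passed the low-count filter only through striatum. Their direction was thus set by the filter, and they add no support to the counts of higher members. The members lower in striatum were Slc13a4 (log2 differences of -2.67, -2.57 and -1.74 at the 3 ages and -2.40 for BACHD and its WT mice), Igfbp2 (-2.12, -2.06, -1.61 and -2.25) and Col8a1, a collagen of basement membranes (-1.47, -0.97, -1.11 and -1.72). Igf2 was lower at 2 months (-0.89, SE 0.20), at 6 months (-0.88, SE 0.18) and in the BACHD cohort (-1.13, SE 0.14), and missed the threshold at 12 months (-0.26, SE 0.28, edgeR adjusted p = 0.40). Of the leptomeningeal genes, 11 to 13 of the 13 or 14 tested were lower in striatum in each cohort, and the part of the meninges in these 4 differences was not tested. Oligodendrocyte genes were higher in striatum, 10 of 10 in every cohort.

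Among the choroid plexus genes with the smallest p, Clic6 was 5.49 log2 units higher in striatum at 2 months (SE 0.32, edgeR adjusted p = 2.8e-14), 5.67 at 6 months (SE 0.19) and 4.34 at 12 months (SE 0.31). Its mean was 23.4 CPM (SD 8.84, n = 12) in striatum and 0.490 CPM (SD 0.690, n = 12) in cortex at 2 months, and the tissues did not overlap. Clic6 differed from Ttr in that nearly every striatal library expressed it at a like level, from 12.9 to 49.5 CPM, while Ttr ran from 7.14 to 1506 CPM. Car12 was 1.67 to 2.11 log2 units higher in striatum across the cohorts, Calml4 (a calmodulin-like protein) 2.11 to 4.00 and Rarres2 0.89 to 1.2. Without the carriers 19, 26 and 24 members were called at 2, 6 and 12 months, against 22, 26 and 25 with them.

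The ependymal genes followed another pattern, with no striatal library far from the rest. Foxj1 was 5.41 to 19.4 CPM in striatum (median 9.80 CPM) and 0.971 to 6.38 CPM in cortex (median 2.29 CPM). At 12 months it was 17.0, 5.41, 6.44, 7.78, 8.87, 8.56, 5.72 and 12.1 CPM in BAC-CAG striata and 11.8, 10.2, 12.3, 12.6, 9.43, 8.93, 9.80 and 8.69 CPM in WT striata. The groups overlapped, with the highest value in the BAC-CAG carrier and the 5 lowest also in BAC-CAG libraries. Foxj1 was 2.18, 2.09 and 2.03 log2 units higher in striatum than in cortex at 2, 6 and 12 months (SE 0.16, 0.13 and 0.17) and 2.55 in the BACHD cohort (SE 0.09). At 6 months Tmem212 and Ccdc153, both markers of ciliated cells, differed most, by 6.94 (SE 0.29) and 6.92 log2 units (SE 0.28), with cortical levels near 0. Ccdc153 was 3.34 CPM (SD 1.10, n = 16) in striatum and 0.0218 CPM (SD 0.0267, n = 16) in cortex at that age. Ak7, an adenylate kinase that feeds the axoneme, was 4.00 to 4.99 log2 units higher, Hydin (a protein of the central pair of the axoneme) 1.90 to 3.20, Dnah12 (a dynein heavy chain) 2.88 to 3.50, Dynlrb2 (a dynein light chain) 2.02 to 2.63 and Rsph1 (a radial spoke protein) 1.02 to 1.39.

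The 8 genes moved together from library to library. Over the 44 striatal libraries of the BAC-CAG tables, in log2(CPM + 1) centred on the group means, the Pearson correlation with the mean ependymal score was 0.96 for Ak7, 0.94 for Ccdc153, 0.92 for Hydin and Tmem212, 0.90 for Foxj1, 0.89 for Dnah12, 0.86 for Rsph1 and 0.83 for Dynlrb2. These are descriptions of genes that enter the score and share libraries. Outside the list, Spata18 (0.95), Dnali1 (0.94) and the cilia gene Rsph4a (0.93) were most like the score among 18847 genes. Rarres2, listed with the choroid plexus, had 0.77 with the ependymal score and 0.25 with the core score, and Calml4 had 0.71 with the ependymal score once the carriers were left out, against 0.48 with the core. Ttr had 0.95 with the core score in all libraries and 0.85 without the carriers, Kl 0.99 and 0.94, Slc4a5 0.99 and 0.91, and Clic6 0.85 and 0.31. Outside the list Kcne2 (0.98), Kcnj13 (0.98) and Mfrp (0.97) were most like the core score.

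Promoter sequences are shown for the 3 ependymal genes that hold a match to GTTGCC, the half-site of the X-box that RFX factors of ciliated cells are known to bind. RefSeq promoters on GRCm38.p6 were searched on both strands from 250 bases before to 50 after the start, and only bases before the start are printed, 5′ to 3′ on the strand of the gene, with the match in capitals. Hydin has the match on the opposite strand, so its capitals read as the reverse complement. Ccdc153 is shown at chr9:44240495-44240560 (plus strand, 182 to 117 bases before the start), Dynlrb2 at chr8:116504934-116504999 (plus strand, 81 to 16 bases before) and Hydin at chr8:110266934-110266976 (plus strand, 43 to 1 bases before).

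Ccdc153: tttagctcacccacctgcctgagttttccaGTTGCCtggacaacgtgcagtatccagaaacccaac
Dynlrb2: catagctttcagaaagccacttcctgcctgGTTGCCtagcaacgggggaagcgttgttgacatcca
Hydin: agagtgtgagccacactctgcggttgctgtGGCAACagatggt

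Of the 6 ependymal genes with a promoter in the table these 3 held the letters, as did 19 of 41 promoters of other motile cilia genes, 4 of 25 of choroid plexus genes and 12.5% of all 32851 promoters. The OTX motif TAATCC was in 2 of the 25 choroid plexus promoters, in none of the 6 ependymal ones and in 7.06% of all, and the forkhead motif TGTTTAC in 1 of 25, in 1 of 6 (Ak7) and in 3.65% of all. None of the 3 motifs contains another on either strand, and a match says only that the letters are there. Foxj1, Rsph1, Ttr, Clic6, Folr1, Sostdc1, 1500015O10Rik, Enpp2 and Rarres2 were not among the promoters.

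A single cortical library stood out for ependyma. In replicate 2 of the BAC-CAG mice at 12 months the 8 genes summed to 27.1 CPM, 4.68 times the cortical median, while the other 51 cortical libraries had 4.23 to 8.02 CPM. All 8 genes, which made up the sum that set this library apart, were above every other cortical library of that table. Replicate 1 of the BAC-CAG mice was left out of that comparison. Ccdc153 was 2.11 CPM (45.3 times the median), Ak7 3.08 CPM (27.2 times), Hydin 6.32 CPM (10.6 times) and Foxj1 6.38 CPM (3.13 times). Of 40 other motile cilia genes, 26 were also above all other libraries, and so were 9 of 10 oligodendrocyte genes (median ratio 1.51) and 10 of 23 choroid plexus genes (median ratio 2.24, and 3.18 over the core). Striatal projection neuron genes had a median ratio of 2.12, with 5 of 10 at 2 times the median or more and none above all other libraries. The part of these other cell types in the ependymal values was not tested. Ttr was 32.7 CPM there (4.84 times), Otx2 9.55 times and Calml4 12.2 times the median, whereas Slc13a4 was 0.296 times and Igf2 0.528 times. The striatum of the same animal held 20.6 CPM of the ependymal genes (0.573 times the median) and was the second highest striatal library in cortical neuron genes. No striatal library reached 3 times the median, and the range was 16.1 to 59.0 CPM around a median of 35.1 CPM.

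**Figure D4:**
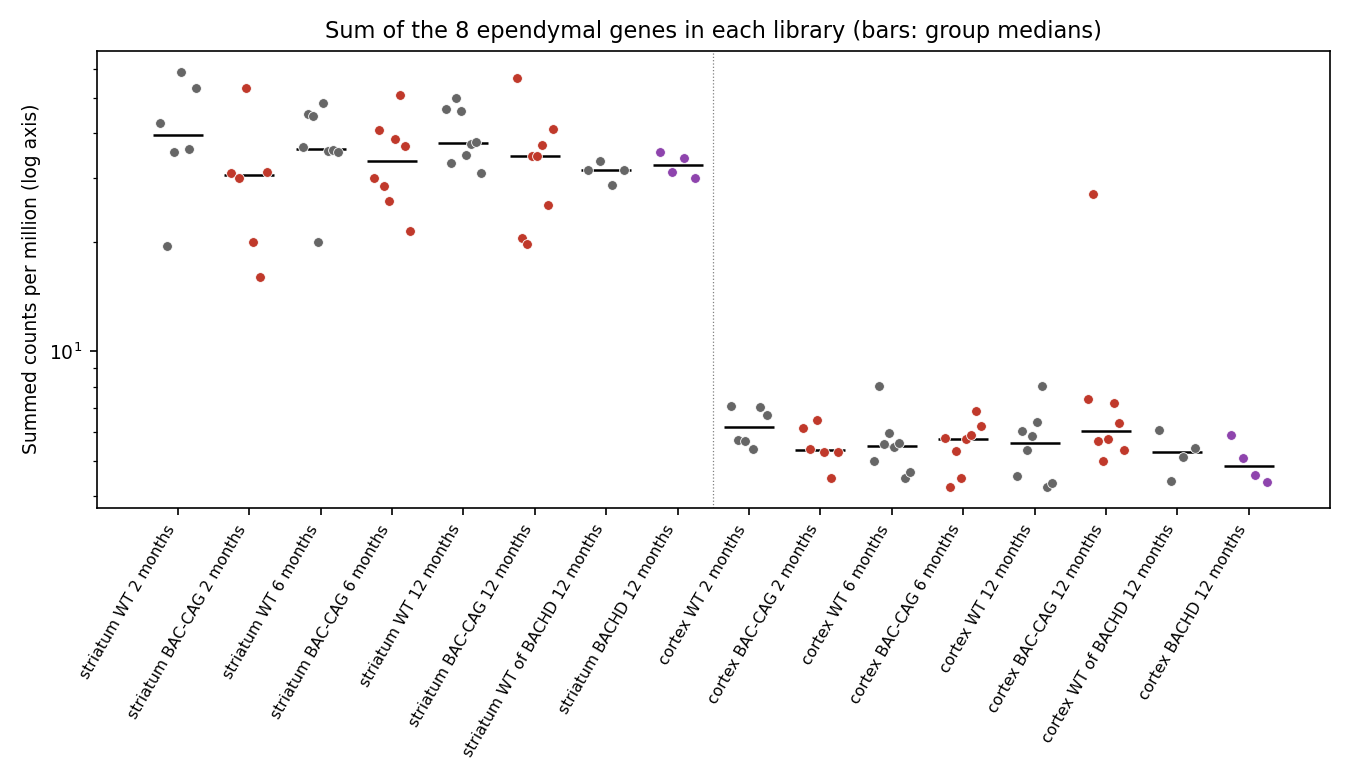
Sum of the 8 ependymal genes (7 in the BACHD cohort) in CPM (log axis) in each library; points are libraries, bars group medians, grey is WT, red BAC-CAG and purple BACHD. Striatal libraries run from 16.1 to 59.0 CPM and cortical ones from 4.23 to 8.02 CPM, apart from the cortex of BAC-CAG replicate 2 at 12 months at 27.1 CPM.

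None of the members was called between genotypes in any of the 8 comparisons by edgeR's quasi-likelihood test (adjusted p under 0.05), out of 17 to 30 members tested in each. At an unadjusted p under 0.05 there were 20 of 189 tests of members (10.6%), against 5.92% of 138915 tests over all genes. The members share libraries and many move together, so their tests are not independent. In single comparisons the members' share ran from 0 of 28 in striatum at 6 months to 7 of 21 in BACHD cortex. Calls were rare among all genes too: 0.00558%, 0.0113% and 0.329% of genes in striatum at 2, 6 and 12 months, 0.00563%, 0.0114% and 0.00557% in cortex, and 0.0378% and 0.00631% in striatum and cortex of BACHD mice. limma-voom with quality weights also called 0 members in each comparison. DESeq2 called 1, Enpp2, lower in BACHD cortex (log2 change -0.28, SE 0.07, DESeq2 adjusted p = 0.029), but it gave no adjusted p to 25 of 29 members there. It also gave none to 9 of 29 in BACHD striatum, to 15, 1 and 17 of 31 in striatum at 2, 6 and 12 months, and to 20, 0 and 4 of 31 in cortex at these ages.

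At 2 months most choroid plexus estimates in striatum had another sign without the single carrier. With all libraries 18 of 21 tested choroid plexus genes had higher estimates in BAC-CAG mice, with a median log2 difference of 0.84 against -0.01 over all genes tested. Without that carrier 17 of 21 had lower estimates, with a median of -0.28. Ttr went from 1.90 (SE 1.14, edgeR adjusted p = 0.74) to -0.72, and Col8a1, the choroid plexus gene with the smallest p, from 1.72 (SE 0.61, adjusted p = 0.74) to 0.65. Slc4a5 (2.24 to -0.53), Folr1 (1.70 to -0.38) and Tmem72 (2.11 to 0.11), named after their values were seen, moved likewise. Of the 50 genes with the highest estimates at this age 11 were choroid plexus members, and without the carrier none was. An exact two-sided permutation test of mean log2(CPM + 1) gave a difference of 0.40 for Ttr (p = 0.87, adjusted over 16 such tests 0.98).

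At 6 months 19 of 20 tested choroid plexus genes had higher estimates in BAC-CAG striatum (median 0.48), and 8 of 21 without the carrier (median -0.03). Ttr went from 0.62 (SE 1.05, edgeR adjusted p near 1) to -0.09. Clic6, with the smallest p, had 22.1 CPM (SD 4.62, n = 8) in BAC-CAG and 18.6 CPM (SD 1.84, n = 8) in WT mice, a log2 difference of 0.21 (SE 0.11) that was 0.10 without the carrier. At 12 months, with 1 carrier in each genotype, 6 of 22 had higher estimates (median -0.11), and 3 of 21 without both carriers (median -0.33). Ttr was -0.16 (SE 1.90) with them and -0.38 (SE 0.38) without them. It was 1.71 without the WT carrier alone and -2.25 without the BAC-CAG carrier alone. The sign also turned without BAC-CAG replicates 3, 4, 5 or 6 (0.69, 0.69, 0.56 and 0.63). Mia, the choroid plexus gene with the smallest p, was 0.210 CPM (SD 0.10, n = 8) in BAC-CAG and 0.364 CPM (SD 0.153, n = 8) in WT striatum (-0.81, SE 0.32, adjusted p = 0.31).

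**Figure D5:**
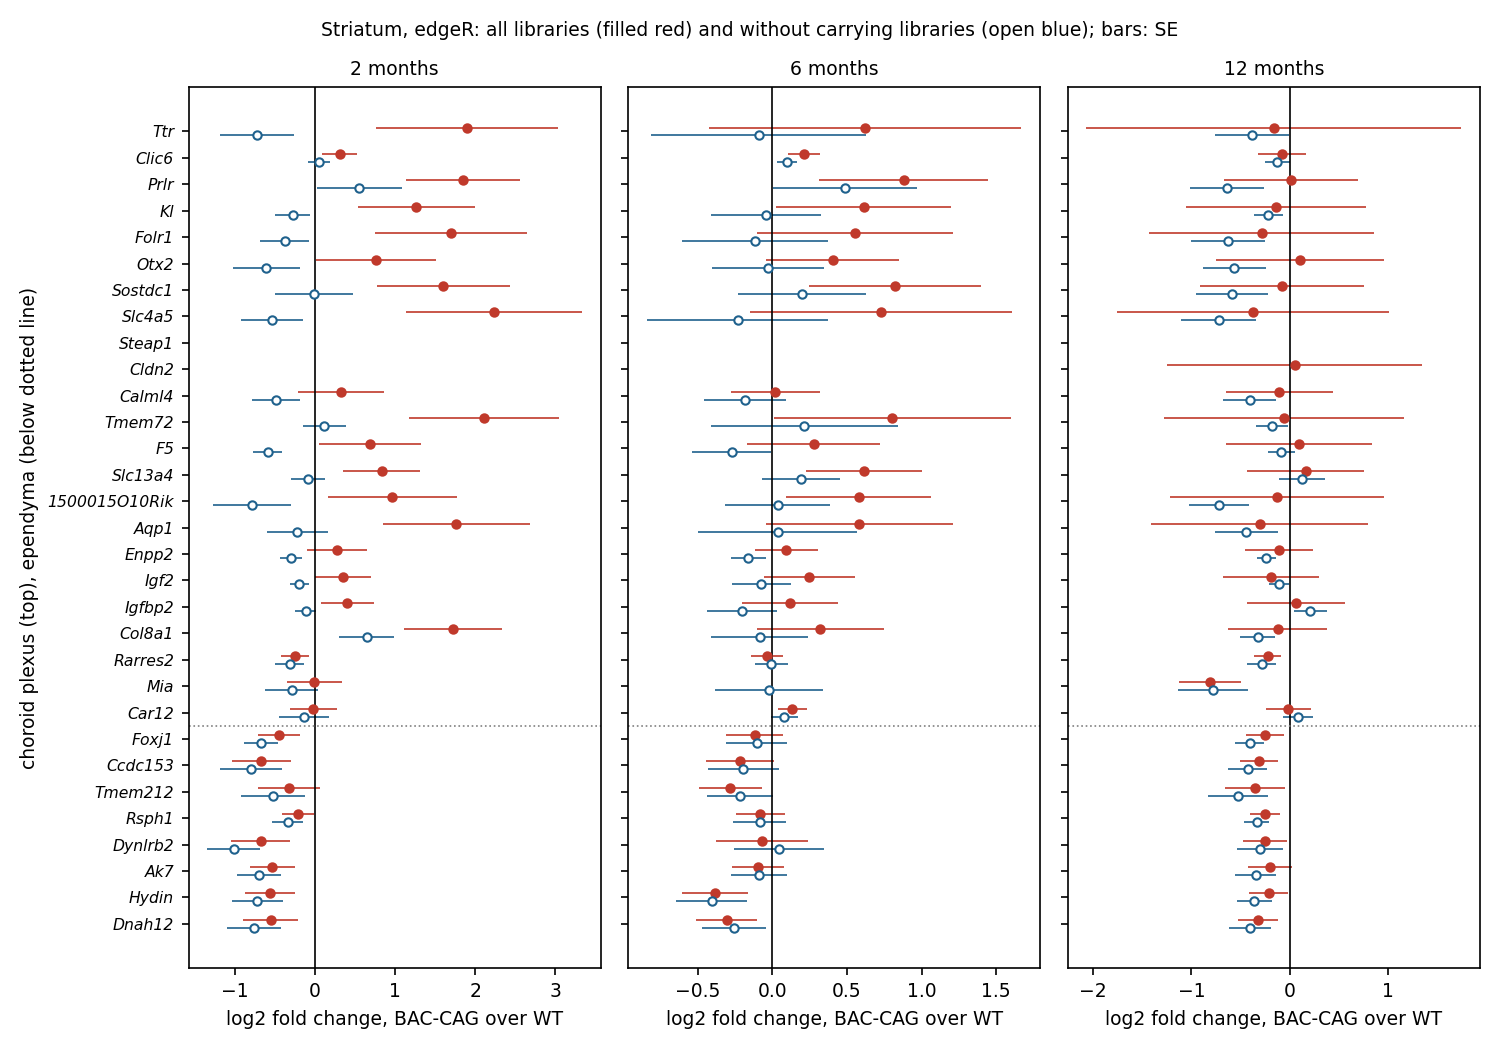
Log2 fold change between BAC-CAG and WT striatum at 2, 6 and 12 months for each tested gene, from edgeR, with all libraries (filled red) and without the libraries that carry choroid plexus (open blue); bars are standard errors and the horizontal scales differ between ages. At 2 months 18 of 21 choroid plexus genes lie right of 0 with all libraries and 4 without the carrier (Ttr 1.90 and -0.72), while the ependymal genes stay left of 0 (Foxj1 -0.45 and -0.67).

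The ependymal estimates kept their sign without the carriers, apart from Dynlrb2 at 6 months. All 8 had lower estimates in BAC-CAG striatum at 2, 6 and 12 months, with medians of -0.54, -0.17 and -0.25, and none was called. Without the carriers 8, 7 and 8 of them were lower (medians -0.71, -0.15 and -0.38), with Dynlrb2 at 0.042 at 6 months. Foxj1 was 10.01 CPM (SD 4.24, n = 6) in BAC-CAG and 13.5 CPM (SD 4.04, n = 6) in WT striatum at 2 months, a log2 difference of -0.45 (SE 0.26, edgeR adjusted p = 0.74), and it was -0.12 (SE 0.19) at 6 months and -0.25 (SE 0.19) at 12 months. The ependymal genes with the smallest p were Ak7 at 2 months (-0.53, SE 0.28), Hydin at 6 months (-0.39, SE 0.22) and Rsph1 at 12 months (-0.25, SE 0.15, adjusted p = 0.52). Exact permutation tests of Foxj1 gave two-sided p = 0.16, 0.60 and 0.18 at the 3 ages (0.72, 0.91 and 0.72 after adjustment). Of 40 other motile cilia genes 35, 28 and 30 had lower estimates, with medians of -0.29, -0.06 and -0.12. The 10 oligodendrocyte genes had lower estimates at every age as well (medians -0.43, -0.10 and -0.22), and their part, and that of how much ventricle wall or white matter a piece held, was not tested. The share of all tested genes with lower estimates was 52.9%, 50.7% and 48.96%.

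In cortex of BAC-CAG mice the larger estimates also shrank when single libraries were left out. Counts of signs in cortex and in the BACHD cohort are given without the share over all tested genes. The genes of a list share libraries, so their signs are not independent. At 2 months 11 of 14 tested choroid plexus genes were lower in BAC-CAG mice (median -0.43), and the same number with a median of -0.12 without replicate 2 of the WT mice. Ttr was 1.27, 1.65, 5.24, 5.93, 7.95 and 8.50 CPM in BAC-CAG and 15.8, 159, 4.95, 3.66, 3.88 and 2.34 CPM in WT cortex. Apart from the library at 159 CPM the groups overlapped, and the log2 difference went from -1.85 (SE 1.09, edgeR adjusted p = 0.77) to -0.29 without it. Folr1 had the smallest p (-1.55, SE 0.52, adjusted p = 0.63) and was -0.83 without it; Rsph1 was -0.21 (SE 0.14). At 6 months Ttr was 0.06 (SE 0.32) and Foxj1 -0.12 (SE 0.15), and Slc13a4 had the smallest p, with 16.7 CPM (SD 4.16, n = 8) in BAC-CAG and 11.03 CPM (SD 4.80, n = 8) in WT mice (0.58, SE 0.24). All 14 leptomeningeal genes had higher estimates at that age (median 0.36), and none was called. At 12 months all 4 tested ependymal genes were higher in BAC-CAG cortex (median 0.63), led by Dnah12 (1.17, SE 0.40, unadjusted p = 0.0082 in edgeR, adjusted p near 1). Without the ependyma-rich replicate 2 the median was 0.15, Dnah12 0.67, Hydin 0.17 instead of 0.83 and Foxj1 0.13 instead of 0.43 (SE 0.24). Ttr was 0.42 (SE 0.40), and 0.04 without replicate 2. Prlr was 0.91 (SE 0.58), and 1.02 without replicate 2 but 0.04 without replicate 1, the animal whose striatum carried choroid plexus. Over all single left-out libraries Prlr ran from 0.04 to 1.34.

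In the BACHD cohort Ttr was 52.9, 20.5, 110 and 114 CPM in BACHD striata and 83.9, 51.7, 111 and 182 CPM in WT striata, with overlapping groups and a log2 difference of -0.64 (SE 0.28, edgeR adjusted p = 0.94). Of 21 tested choroid plexus genes 19 had lower estimates in BACHD striatum (median -0.26), and F5 (coagulation factor V) had the smallest p (-0.32, SE 0.12). The ependymal genes had a median difference of 0.01 over 7 genes. Foxj1 was 7.84 CPM (SD 0.532, n = 4) in BACHD and 7.88 CPM (SD 0.534, n = 4) in WT striatum, and Hydin had the smallest p (0.16, SE 0.11). In cortex Ttr was 8.55, 3.03, 9.63 and 5.96 CPM in BACHD and 200, 20.5, 10.9 and 72.6 CPM in WT mice. The groups did not overlap, with all 4 WT libraries above all 4 BACHD libraries. The log2 difference was -3.36 (SE 0.80, edgeR adjusted p = 0.55), and the exact two-sided permutation test gave p = 0.029, the smallest possible with 4 animals a group (adjusted p = 0.46 over 16 tests). Of 17 tested choroid plexus genes 13 had lower estimates in BACHD cortex (median -0.46), and without WT replicate 1 12 of 17 did (median -0.19). Of the 13, 11 came closer to 0 without it. Ttr was then -2.18, Clic6 went from -1.78 to -0.71, Tmem72 from -1.79 to -0.84 and Prlr from -1.54 to -0.93. F5 and Aqp1 went from -0.65 and -0.82 to -0.11 and -0.19, and Sostdc1 moved the other way, from 0.05 to 0.83 (SE 0.27, edgeR adjusted p = 0.62). At an unadjusted p under 0.05 there were 7 of 21 members, in tests that are not independent, against 6.37% of all genes in this comparison. All 7 were of the choroid plexus and lower in BACHD cortex. None of them was ependymal: Foxj1 was -0.01 (SE 0.18), and Dynlrb2, with the smallest p among them, -0.37 (SE 0.29). Genes of striatal projection neurons were also above all other libraries in WT replicate 1, as given above, and their part in these differences was not tested.

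The count of genes called outside the list also varied with the libraries and covariates used. In striatum at 12 months edgeR called 60 genes, 18 higher and 42 lower in BAC-CAG mice. With the core score as a covariate 37 of these 60 were called and no others. With the ependymal score as a covariate 28 were called, 25 of them among the 60. Without both carriers 25 were called, 23 of them among the 60, and 2 when BAC-CAG replicates 2 and 7, highest in cortical neuron genes, were left out as well. The estimates of all 60 genes kept their sign under the first 3 of these settings. Their log2 differences were 0.977 to 1.03 times as large with the core score (median 0.9995), 0.844 to 1.12 times with the ependymal score (median 0.975) and 0.795 to 1.21 times without both carriers (median 0.989). The standard errors were larger by medians of 1.02, 1.07 and 1.09 times. Among the calls lost, the log2 differences were 0.980 to 1.01 times as large with the core score (median 0.9996). They were 0.844 to 1.09 times as large with the ependymal score (median 0.957) and 0.795 to 1.12 times without both carriers (median 0.960). The part of the ventricular lining in these losses was not tested. Leaving out WT replicates 1, 3, 4, 5, 6 and 7 in turn gave 24, 33, 34, 24, 30 and 27 calls. Leaving out BAC-CAG replicates 1, 3, 4, 6 and 7 gave 39, 26, 20, 17 and 32, and BAC-CAG replicates 5 and 8 gave 102 and 246. The counts without a single carrier, 39 and 34, lay inside the range over the other left-out libraries (17 to 246). Sec14l3, of the other motile cilia genes, was among the 60 (-1.16, SE 0.18, edgeR adjusted p = 0.013), and stayed called with either score as covariate and without the carriers (adjusted p 0.019, 0.037 and 0.043). It had a correlation of 0.12 with the ependymal score over the striatal libraries. The 8 members had 0.83 to 0.96, but they make up that score, so the values are not on a par. Over the striatal libraries at 12 months the called genes most like that score were Slc16a6 (0.62), Rnase4 (0.61), Abhd11os (0.59) and Ttyh1 (0.51). The other called genes ran from -0.41 to 0.46. With the score as covariate Slc16a6 went from -0.26 to -0.22, Rnase4 from -0.32 to -0.27 and Ttyh1 from -0.17 to -0.16. These lost their call, while Abhd11os went from -0.58 to -0.49 and stayed called. They were named after their values were seen, and the part of ependyma was not tested.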

How the data were processed

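RNA of 104 striatum and cortex samples was made into TruSeq libraries. The labels' protocols name a stranded kit, while the series' design text names the RNA kit v2 with strand-specific sequencing. Raw gene counts were deposited by the authors in 4 tables, made with STAR and HTSeq on GRCm38 (mm10), per the submitters' processing notes; their versions and strand settings are not given in the sources used here, so reads of overlapping genes cannot be told apart. Columns were linked to samples by the animal tag in the titles (16 groups, 25.8 to 48.4 M counts a library). No column was left without a sample.

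CPM was the count divided by the total count of the library in M. Genes were tested on the whole tables with edgeR 4.0.16 in R 4.3.3 (quasi-likelihood F test, two-sided, TMM factors, filterByExpr, sex as covariate, Benjamini-Hochberg adjustment, threshold 0.05). Standard errors were computed from F and the log2 change (its size over the root of F). Members absent from a comparison did not pass that filter. Ttr and Foxj1 were also compared by exact two-sided permutation, 16 tests in all. Tissue contrasts had genotype and sex as covariates. Both tissues of an animal were paired by the tags: their deviations from the group means correlated with medians of 0.317 (11 animals, 2 months), 0.485 (16, 6 months), 0.319 (16, 12 months) and 0.305 (8, BACHD), every pair above 0.1. Fits were tested on simulated data: of genes changed by 1 log2 unit, 83.8% were recovered in a striatal comparison at 2 months with 17788 genes. The simulated counts had the spread typical of genes at their level and no single library that stood apart. This share therefore does not apply to genes such as Ttr.

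The members, the lists and the libraries left out were chosen with earlier results of these data known. Fold changes are named for Ttr and Foxj1, for the choroid plexus and the ependymal member with the smallest p in each genotype comparison, and in tissue contrasts for the 3 of each with the smallest p and those called against the majority; others are marked. Alternatives were DESeq2 1.42.0, RLE factors, no filter, leaving sex out of the fit, limma-voom 3.58.1 with weights for library quality, score covariates, a threshold of 0.1, leaving out each library or the carriers, the animal as a block, multiples of 2 and 5, and a pseudocount of 0.1. Cerebellum was not analysed here.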

Additional observations from a re-analysis of the deposited data

Results flagged for a closer look

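In 48 checks (16 groups, each for Ttr, the core sum and the ependymal sum) 22 values stood apart from the others of their group by Dixon's criterion. Its rate by chance of about 1 in 20 groups holds for normally distributed values. CPM values here were skewed and the 3 measures shared libraries, so the 22 cannot be set against that rate. These 22 values came from 15 libraries, 7 of which stood apart on more than 1 measure. For Ttr these were in striatum the 4 carriers (1361 CPM at 2 months, 1018 CPM at 6 months, 1494 CPM for BAC-CAG and 1506 CPM for WT mice at 12 months) and replicate 5 of the WT mice at 6 months (355 CPM). In cortex they were replicate 2 of the WT mice at 2 months (159 CPM), replicate 4 of the BAC-CAG mice (17.6 CPM) and replicate 4 of the WT mice (14.9 CPM) at 6 months, and replicate 2 of the BAC-CAG mice (32.7 CPM) and replicate 3 of the WT mice (16.5 CPM) at 12 months.

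For the core sum the 4 carriers stood apart again, at 289 CPM (2 months), 216 CPM (6 months), 333 CPM and 310 CPM (BAC-CAG and WT at 12 months), with replicate 5 of the WT mice at 6 months (93.4 CPM) and replicate 1 of the WT mice at 2 months (49.1 CPM). In cortex the core sum was apart in replicate 2 of the WT mice at 2 months (48.8 CPM), replicate 1 of the BAC-CAG mice at 12 months (39.9 CPM) and replicate 1 of the WT littermates of BACHD mice (55.5 CPM).

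For the ependymal sum, cortex replicate 2 of the BAC-CAG mice at 12 months (27.1 CPM) and cortex replicate 2 of the WT mice at 6 months (8.02 CPM) were high, and striatum replicate 4 of the WT mice at 6 months was low (20.0002 CPM). All but the last were the highest of their group.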

How the results depend on the processing

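With every library, 0 members were called between genotypes under RLE factors, no filter, limma-voom, no sex covariate, a threshold of 0.1 and each left-out library, and under DESeq2, which gave an adjusted p to 4 to 31 members a comparison, in 7 of 8; DESeq2 called 1 in BACHD cortex. In tissue contrasts the replicate block gave 21, 26, 24 and 22 calls (2, 6, 12 months, BACHD), against 22, 26, 25 and 20 without it. Striatal carriers of choroid plexus numbered 5 instead of 4 at 2 times the median, by the score rule and over the 12 other core genes. Cortical carriers of choroid plexus numbered 4 at 2 times the median, 1 by the score rule and 2 over the 12 other core genes, and cortical carriers of ependyma 0 at 5 times the median.

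Signs turned only for values that missed the threshold. Ttr in striatum was between -0.72 and 2.23 over left-out libraries at 2 months, -0.092 and 1.21 at 6 months and -2.25 and 1.71 at 12 months, and in cortex at 6 months between -0.26 and 0.29. Without the carriers it was -0.72 at 2 and -0.092 at 6 months, with limma-voom -0.27 at 2 months, and at 12 months 0.056 without BAC-CAG replicates 2 and 7 and 0.045 without these and the carriers. Foxj1 ran between -0.070 and 0.040 in BACHD striatum and between -0.17 and 0.10 in BACHD cortex, where it was 0.034 with limma-voom and 0.0033 without the sex covariate. The mean log2 difference of Ttr in cortex at 6 months was 0.0079 with a pseudocount of 1 and -0.0011 with 0.1. Genes called in striatum at 12 months outside the members were 17 to 246 over left-out libraries. Causes were not tested. Members near 0 CPM in cortex were left out by the filter, so differences there were not detectable at this depth.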
